A study of Mus musculus with 17 samples.

Results

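The collagen genes were taken as all genes named Col, a number, a and a number, which gave 44 of the 30406 genes that the gene lists of the 17 libraries share. Sorted cells of mouse skin (8 libraries) and kidney (9 libraries) were profiled by droplet single-cell RNA sequencing, and the level of each collagen was read from unique molecular identifiers (UMIs), which were added up over all cells of 1 class in 1 library and given per 1000000 UMIs of that class (CPM). All mice were 8 weeks old and carried PDGFRb-Cre, which is driven by the promoter of the PDGF receptor β gene, and the Z/EG reporter, and GFP+ cells were sorted after Liberase digestion. Skin came from SARAWT mice given PBS (3 libraries) or bleomycin (3 libraries), and from SARATg mice, in which Cre switches on a transgene for human SARA (gene ZFYVE9), given PBS (1 library) or bleomycin (1 library). Bleomycin was injected under the skin at 20 mg/kg, 3 times a week for 2 weeks. Kidney came from SARAWT mice given vehicle (3 libraries) or aristolochic acid (3 libraries) and from SARATg mice given vehicle (2 libraries) or aristolochic acid (1 library), with aristolochic acid injected intraperitoneally at 5 mg/kg, 3 times a week for 3 weeks.

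Collagens are triple-helical proteins of the extracellular matrix. Fibrillar collagens (types I, III, V, XI and their relatives) form the tensile fibres of the dermis, type IV forms the sheet-like network of basement membranes, type VI forms beaded filaments around cells, and types such as XII and XIV sit on the surface of fibrils. Type VII anchors the epidermis to the dermis, type XVII is a transmembrane protein of the hemidesmosome, and types XV and XVIII carry glycosaminoglycans in basement membrane zones. In fibrosis of skin or kidney, activated mesenchymal cells are known to lay down fibrillar collagen in excess.

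Several features of the libraries touch the values that follow. Library totals ranged from 3355217 to 69765525 UMIs in skin and from 28660151 to 137093834 UMIs in kidney. Leukocytes made up 53.6% to 83.3% of kept skin cells and stromal cells 1.53% to 20.2%. Pdgfrb itself averaged 534 CPM in mural cells and 123 CPM in stromal cells of skin but 1.55 CPM in skin leukocytes, so its mRNA was near absent from most sorted cells. SARA transcript levels did not follow all labels, with the limit that the transgene is human and the human gene is listed in 4 skin libraries alone, so that the mouse gene Zfyve9 is an indirect measure of it elsewhere. Mouse Zfyve9 was at 620 CPM in the library labelled SARAWT PBS 3, against 314 and 226 CPM in the SARATg skin libraries and 7.64 to 25.8 CPM in the other skin libraries. The human gene ZFYVE9 was at 845 CPM in the library labelled SARAWT PBS 1. In the 3 other libraries whose gene list holds it, it was at 190 CPM (PBS 2), 89.3 CPM (bleomycin 1) and 115 CPM (bleomycin 2). All 4 are labelled SARAWT, so that human ZFYVE9 was counted in each SARAWT library where it is listed. In kidney the library labelled SARAWT aristolochic acid 1 had 165 CPM of Zfyve9 and the library labelled SARATg aristolochic acid 20.4 CPM, against 88.9 and 89.6 CPM in the SARATg vehicle libraries and 10.9 to 31.6 CPM in the other SARAWT libraries. Some cell barcodes were found in more than 1 skin library. They made up 7.38% of those in PBS 1 and 55.5% in PBS 2, 17.6% in bleomycin 1 and 22.1% in bleomycin 2 (all SARAWT), and no more than 0.824% elsewhere in skin. Each shared barcode was kept only in the library where it had most UMIs. Replicates are separate libraries by their labels, and p-values measure the spread between them.

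Cells were assigned to classes by fixed marker genes, with no collagen among them. The stromal class expressed all 14 of its markers in every skin library, with a sum of 9130 to 28954 CPM, and the mural class (pericytes and vascular smooth muscle cells) expressed 10 to 12 of its 12 markers, with a sum of 21280 to 29035 CPM. All 10 endothelial markers were found in the endothelial class of every library used, with a sum of 6237 to 8102 CPM, and Schwann cell markers summed to 3094 to 19502 CPM in the Schwann class. A class was used in a library from 10 cells on, which gave 8 stromal, 6 mural, 7 endothelial, 8 keratinocyte, 7 Schwann and 8 leukocyte sums in skin.

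Mean collagen content per UMI was highest in the stromal class, with 21.1% in the SARATg PBS library. In the SARATg bleomycin library Schwann cells held more, at 2.96% against 2.27% in stromal cells. Collagens made up 6.49% ± 6.16 (SD, n = 8) of all stromal UMIs, 2.35% ± 0.88 (SD, n = 7) of those of Schwann cells, 0.473% ± 0.343 (SD, n = 6) of mural UMIs and 0.420% ± 0.286 (SD, n = 7) of endothelial UMIs, but 0.0123% ± 0.0080 (SD, n = 8) of leukocyte UMIs. Stromal cells held between 32.1% and 95.2% (median 59.7%) of a skin library's collagen UMIs, Schwann cells at most 31.9% (in SARAWT bleomycin 3, where stromal cells held the 32.1%), and cells left without a class 4.37% to 44.2%. Within the stromal class, Col1a1, Col1a2 and Col3a1 together accounted for 72.5% to 96.9% of collagen UMIs. Of the 44 collagens, 23 reached a mean of 100 CPM in some skin class and 12 in some kidney class, and each of the 44 had at least 1 UMI in both tissues. The Schwann class held the highest mean of 16 collagens, the stromal class of 14, the mural class of 6, the endothelial class of 4 and the keratinocytes of 2, and no collagen was highest in leukocytes.

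**Figure D1:**
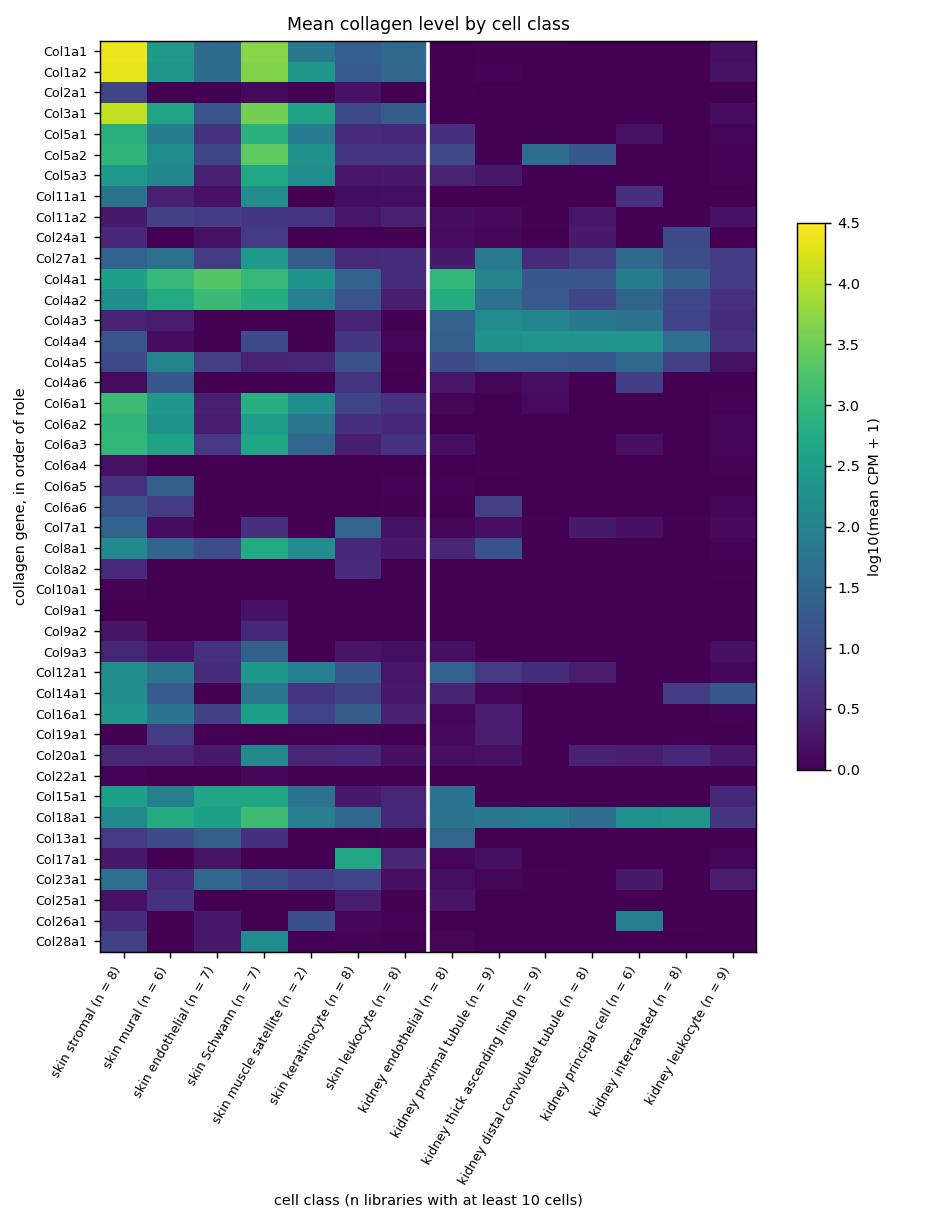
Heat map of the mean level of each of the 44 collagens (rows, ordered by role) in 7 cell classes of skin and 7 of kidney (columns), with colour giving log10 of the mean CPM plus 1 over the libraries with at least 10 cells. Col1a1, Col1a2 and Col3a1 are highest in skin stromal cells, Col4a1 and Col4a2 in endothelial cells of both tissues, Col17a1 in keratinocytes, and Col4a3 and Col4a4 stand out in the kidney tubule.

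Among the fibrillar collagens, Col1a1 and Col1a2 (the α1 and α2 chains of type I) averaged 23992 ± 26809 and 22043 ± 24856 CPM in stromal cells (SD, n = 8). Col3a1 (type III) followed with 12089 ± 10047 CPM. The SDs are as large as the means because of the SARATg PBS library, described with the genotypes, and medians were 13780 CPM for Col1a1 and 13639 CPM for Col1a2. Schwann cells had 4993 CPM of Col1a1, 4511 CPM of Col1a2 and 3653 CPM of Col3a1, and mural cells 264, 241 and 422 CPM. Chains of type V, which nucleates fibrils, instead had their highest means in Schwann cells. Col5a2 averaged 2406 ± 1038 CPM there (SD, n = 7) and 913 CPM in stromal cells, Col5a3 472 ± 124 and 256 CPM, and Col5a1 756 ± 324 and 685 CPM. For Col5a1 the Schwann spread covers the stromal mean, and the Schwann mean pools PBS and bleomycin sums, which differed in SARAWT libraries. Col11a1 (type XI) was at 169 ± 90 CPM and Col27a1 at 275 ± 114 CPM in Schwann cells, against 54.8 and 25.4 CPM in stromal cells. Col2a1, Col11a2 and Col24a1 had means under 8 CPM in every skin class, and single sums of up to 35.3 CPM for Col2a1 (stromal), 25.4 CPM for Col11a2 and 22.2 CPM for Col24a1 (both Schwann).

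The basement membrane collagens Col4a1 and Col4a2 had another order. Endothelial cells led with 2022 ± 1536 and 1166 ± 827 CPM (SD, n = 7), ahead of mural cells (1013 and 559 CPM), Schwann cells (977 and 621 CPM) and stromal cells (350 and 172 CPM), and the endothelial spread covers the mural and Schwann means. Col4a5, a chain of the network found in specialised basement membranes, reached 102 ± 28 CPM in mural cells (SD, n = 6) and at most 11.9 CPM in the mean of the other main classes. The main type VI chains were highest in stromal cells, with Col6a1 at 1196 ± 254 CPM, Col6a2 at 902 ± 255 CPM and Col6a3 at 936 ± 364 CPM (SD, n = 8), and lower in Schwann cells (648, 303 and 468 CPM) and mural cells (246, 201 and 386 CPM). Endothelial cells had under 5 CPM of each of these 3 chains.

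Schwann cells also led for 6 collagens of at least 100 CPM outside the fibrillar group. Col18a1, the precursor of endostatin, averaged 1222 ± 593 CPM there, 578 CPM in mural, 355 CPM in endothelial and 142 CPM in stromal cells. Col8a1 (a short chain network collagen) averaged 562 ± 389 CPM, Col12a1 249 ± 135 CPM and Col16a1 345 ± 45 CPM (SD, n = 7), against 136, 165 and 230 CPM in stromal cells. Col28a1 at 151 ± 47 CPM and Col20a1 at 131 ± 163 CPM were mostly a Schwann cell product, with next highest means of 6.38 CPM (stromal cells) and 2.20 CPM (keratinocytes) among the 6 skin classes with 6 libraries or more. Col15a1 was shared by endothelial (451 CPM), Schwann (450 CPM) and stromal cells (350 CPM), whose ranges overlap. Col14a1, a fibril-associated collagen, was highest in stromal cells at 163 ± 147 CPM (SD, n = 8). In keratinocytes, Col17a1 ranged from 219 to 684 CPM over the 8 libraries and averaged 481 ± 179.8 CPM, and Col7a1, the anchoring fibril collagen, averaged 27.9 ± 24.9 CPM there and 25.6 CPM in stromal cells. The other classes had at most 2.06 CPM of Col17a1 on average.

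Sequence upstream of a RefSeq transcript start is shown for Col1a2 and Col3a1, 2 of the 3 main stromal collagens, and for Col17a1, the main keratinocyte collagen, while that of Col1a1 was not used here. The bases are those of RefSeq on GRCm38.p6, 5′ to 3′ on the strand of the gene, limited to bases outside annotated exons. The motifs searched were the TATA box (TATAAA on the strand of the gene or TTTATA as its complement), the CCAAT box (CCAAT with ATTGG as complement), the GC box (GGGCGG with CCGCCC as complement) and a stretch that holds the letters of a SMAD binding element (CAGACA with TGTCTG as complement), and capitals mark each match. Col1a2 is shown over chr6:4505370-4505492 (+), 123 bases that end 126 bases before the RefSeq start and lie in an intron of a GENCODE transcript that starts further upstream, Col3a1 over chr1:45311288-45311537 (+) and Col17a1 over chr19:47692095-47692292 (−).
Col1a2: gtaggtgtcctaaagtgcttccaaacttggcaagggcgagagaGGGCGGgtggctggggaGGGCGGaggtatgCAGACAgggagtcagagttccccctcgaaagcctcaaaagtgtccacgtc
Col3a1: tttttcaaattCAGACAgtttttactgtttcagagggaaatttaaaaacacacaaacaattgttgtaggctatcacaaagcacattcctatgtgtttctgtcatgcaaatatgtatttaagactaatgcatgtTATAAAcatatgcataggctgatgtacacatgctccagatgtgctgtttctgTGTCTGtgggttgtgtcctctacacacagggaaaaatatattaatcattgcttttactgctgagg
Col17a1: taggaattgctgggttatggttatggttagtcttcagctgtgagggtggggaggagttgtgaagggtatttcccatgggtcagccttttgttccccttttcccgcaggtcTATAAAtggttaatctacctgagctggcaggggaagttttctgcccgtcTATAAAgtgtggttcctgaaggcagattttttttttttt
Col1a2 held GGGCGG at 2 places and CAGACA at 1, Col3a1 held TATAAA at 1 and CAGACA or its complement at 2, and Col17a1 held TATAAA at 2. In the full 250 bases before the start, of which the Col1a2 and Col17a1 stretches are parts, 12.4% of 32841 mouse promoters of the same table held TATAAA, 33.9% CCAAT, 32.7% GGGCGG and 17.1% CAGACA on either strand. Counted per gene, over any promoter listed for it in the same 250 bases, 5, 13, 21 and 9 of 35 collagens did, and these gene counts are not on the scale of the shares per promoter. A match describes letters only.

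The 44 genes lie on 15 chromosomes and include 8 neighbouring pairs, of which 3 are head to head and are all type IV pairs. On GRCm38 with GENCODE vM21, Col4a1 (chr8:11198423-11312826, −) and Col4a2 (chr8:11312805-11449287, +) overlap by 22 bases at their starts, and Col4a4 (chr1:82448423-82586849, −) and Col4a3 (chr1:82586921-82722059, +) are 71 bases apart. The 30 bases over both starts of the first pair, at chr8:11312801-11312830 on the + strand, are shown because the genes share a start region and their ratio is described here.
Col4a1 and Col4a2 starts: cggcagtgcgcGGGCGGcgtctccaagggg
The capitals mark a GGGCGG that lies between the starts. Col4a1 stood at 2.00 ± 0.26 times Col4a2 in stromal cells (SD, n = 8), 1.82 ± 0.23 in mural cells (SD, n = 6), 1.70 ± 0.21 in endothelial cells (SD, n = 7), 1.60 ± 0.17 in Schwann cells (SD, n = 7) and 2.15 ± 0.21 in the kidney proximal tubule (SD, n = 9), although the level of Col4a1 differed between these classes by over 10 times. It was more spread in kidney endothelial cells (1.07 to 2.07, n = 8), kidney leukocytes (0.954 to 2.52, n = 7) and skin leukocytes (1.12 to 1.96, n = 6). The ratio of Col1a1 to Col1a2, which are on different chromosomes (chr11:94936224-94953042, + and chr6:4504814-4541544, +), was 1.10 ± 0.09 in stromal cells (range 0.985 to 1.28, n = 8) and 1.03 ± 0.32 in Schwann cells (range 0.465 to 1.29, n = 7). The Schwann values split by treatment, at 0.934 and 0.771 with PBS and 1.29, 1.23 and 1.24 with bleomycin in SARAWT libraries. In the SARATg libraries they were 0.465 with PBS and 1.27 with bleomycin. The type I protein holds 2 α1 chains for each α2 chain. Col4a3 over Col4a4 was 0.73 ± 0.04 in the proximal tubule (SD, n = 9) and 0.46 ± 0.05 in the thick ascending limb (SD, n = 5), whose ranges do not overlap. UMIs are counted once per transcript end, so that no correction for length was made. Capture can still differ between genes, so these are ratios of UMI counts and need not equal ratios of mRNA molecules.

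**Figure D2:**
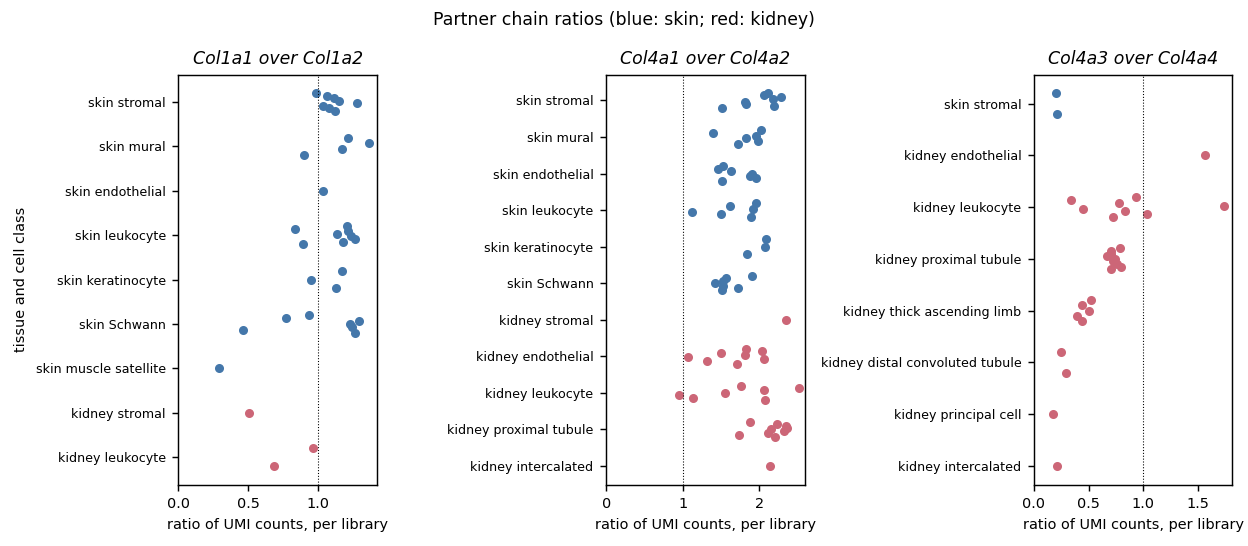
Ratio of the UMIs of paired collagen chains (horizontal axis) in each library (points, blue for skin and red for kidney) by cell class (vertical axis), for sums with at least 20 UMIs of each chain, with a dotted line at equal counts. Col1a1 over Col1a2 lies between 0.985 and 1.28 in stromal cells, Col4a1 over Col4a2 between 1.40 and 2.29 in the stromal, mural, endothelial and Schwann cells of skin, and Col4a3 over Col4a4 is lower in the distal nephron than in the proximal tubule.

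Each class was set against leukocytes of the same libraries in a fit with the library as a block (edgeR's quasi-likelihood test, Benjamini-Hochberg adjusted p under 0.05 over 12179 genes), in which 31 of the 44 collagens passed the filter on low counts. The filter can pass a gene through the class where it is high, so the counts describe those genes alone. Of the 31, 30 were higher in stromal cells, where 32.2% of all genes tested were higher, and Col17a1 was lower, where 34.3% of all genes were. In Schwann cells 27 were higher and Col17a1 was lower (all genes 25.6% and 33.0%). In mural cells 23 were higher (all genes 21.0%), in keratinocytes 13 (all genes 32.0%) and in endothelial cells 9 (all genes 19.3%), none of them lower. For muscle satellite cells, with 2 libraries, 14 were higher (all genes 11.2%). The differences ran to log2 changes of 9.29 ± 0.65 for Col1a1 and 8.40 ± 0.39 for Col6a1 in stromal cells, 8.92 ± 0.59 for Col4a1 in endothelial cells, 9.58 ± 0.51 for Col4a5 in mural cells, 10.21 ± 0.54 for Col28a1 in Schwann cells and 7.78 ± 0.38 for Col17a1 in keratinocytes (± SE). Leukocyte levels of 7 collagens in the same library were a small share of the level in the class of highest level, from a median of 0.148% of the stromal level for Col1a2 to 0.536% of the endothelial level for Col15a1, and at most 2.69% in a single library. Free RNA as their source was not tested.

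Stromal and mural cells, both of which carry Pdgfrb mRNA, differed in which collagens they made. Of the same 31 collagens, 18 were higher in stromal cells (all genes 20.3%), Col1a1 by 6.66 ± 0.69 on the log2 scale (SE, adjusted p = 2.6e-10, edgeR). Another 4, Col4a2, Col4a5, Col4a6 and Col18a1, were higher in mural cells (all genes 12.3%), Col4a5 with a log2 stromal over mural change of -2.95 ± 0.40 (SE, adjusted p = 1.4e-07, edgeR). Between the vascular classes, 16 collagens were higher in mural than in endothelial cells (all genes 13.0%) and Col15a1 and Col23a1 were lower (all genes 13.3%).

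The effect of bleomycin was read first in the stromal class, where 24 collagens could be tested in 3 against 3 SARAWT libraries. A gene can pass the filter on low counts through 1 group alone, so that nothing is read from the signs of the changes. The share of stromal UMIs that were collagen was 4.66%, 5.43% and 7.89% with PBS and 2.54%, 3.74% and 4.32% with bleomycin. Of the 24 log2 changes, 16 were negative and 8 positive, and their median was -0.50, against -0.03 over all 9593 genes. A single collagen passed the threshold, where 1.13% of all genes were called lower. It was Col6a6 (chr9:105687809-105828160, −), an α chain of type VI, at 26.5, 39.6 and 11.7 CPM with PBS and 1.86, 0.877 and 3.69 CPM with bleomycin. The groups did not overlap, and the log2 change was -3.34 ± 0.60 (SE, adjusted p = 0.0360, edgeR), based on 3, 1 and 6 UMIs in the bleomycin libraries. Col6a6 passed the filter on low counts through the PBS libraries alone, where it was high, so the call carries that limit. With libraries of the same number as a block, Col8a1 was called higher and Col6a6, Col4a4 and Col1a2 lower. The call of Col6a6 was lost under 7 of 17 alternatives, with edgeR adjusted p from 0.0643 to 0.164 without any 1 library other than PBS 3, 0.194 without deep cells and 0.0759 without the libraries labelled SARAWT PBS 1 and PBS 3.

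Type I and III mRNAs pointed down but did not pass. Col1a1 was at 13796, 19516 and 30207 CPM with PBS and 7675, 13319 and 13764.5 CPM with bleomycin, so that every bleomycin library lay below every PBS library by a narrow margin (log2 change -0.87 ± 0.35, adjusted p = 0.175, edgeR). For Col1a2 the levels were 14003, 18416 and 27069 CPM against 6698, 10422 and 13275 CPM (-0.96 ± 0.33, adjusted p = 0.129, edgeR). Col3a1 overlapped between groups, at 9224, 10237 and 14861 CPM against 4298, 7299.5 and 10023.5 CPM (-0.66 ± 0.33, adjusted p = 0.257, edgeR). The type V chains overlapped, with Col5a1 at 649 to 683 CPM against 495 to 683 CPM and Col5a2 at 790 to 1057 CPM against 716 to 815 CPM.

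Apart from Col6a6, members of other roles had changes of either sign, none past the threshold, and members of 1 role could differ in sign. The basement membrane gene Col4a1 was at 637, 378 and 602 CPM with PBS and 151, 281 and 319 CPM with bleomycin (log2 change -1.08 ± 0.31, adjusted p = 0.0849, edgeR), and Col4a4 at 20.5, 41.0 and 14.6 CPM against 3.101, 7.02 and 1.23 CPM (-2.66 ± 0.60, adjusted p = 0.0575, edgeR). Col14a1 was at 333, 431 and 139 CPM against 68.8, 12.3 and 90.3 CPM (-2.32 ± 0.63, adjusted p = 0.0800, edgeR). All 3 genes were separated between groups. Col4a4 could pass the filter on low counts through the PBS libraries, where it was high, so its change carries the limit given for Col6a6. In the other direction, Col18a1 was at 64.9, 76.2 and 106 CPM against 262, 222 and 148 CPM (1.37 ± 0.31, adjusted p = 0.0575, edgeR) and Col8a1 at 63.6, 113 and 50.6 CPM against 254, 188 and 136 CPM (1.43 ± 0.36, adjusted p = 0.0663, edgeR), again without overlap. The type VI chains Col6a1 to Col6a4 overlapped between groups, with Col6a1 at 958 to 1567 CPM with PBS and 1180 to 1358 CPM with bleomycin (0.13 ± 0.21, adjusted p = 0.730, edgeR), whereas Col6a5, like Col6a6, did not overlap, at 3.39 to 11.6 CPM with PBS and at most 0.620 CPM with bleomycin. Col15a1 overlapped at 376 to 570 CPM against 153 to 460 CPM, as did Col16a1, at 214 to 322 CPM against 139 to 265 CPM. Col12a1 reached 534 CPM in bleomycin 1 alone, against 92.1 and 119 CPM in the other bleomycin libraries and 76.2 to 206 CPM with PBS. Mural markers in the stromal class moved with the groups, from a sum of 248 to 633 CPM with PBS to 706 to 1306 CPM with bleomycin (9 to 11 of 12 markers detected), and stromal markers overlapped, at 16705 to 28954 CPM against 10509 to 23143 CPM. Their part in these results was not tested.

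**Figure D3:**
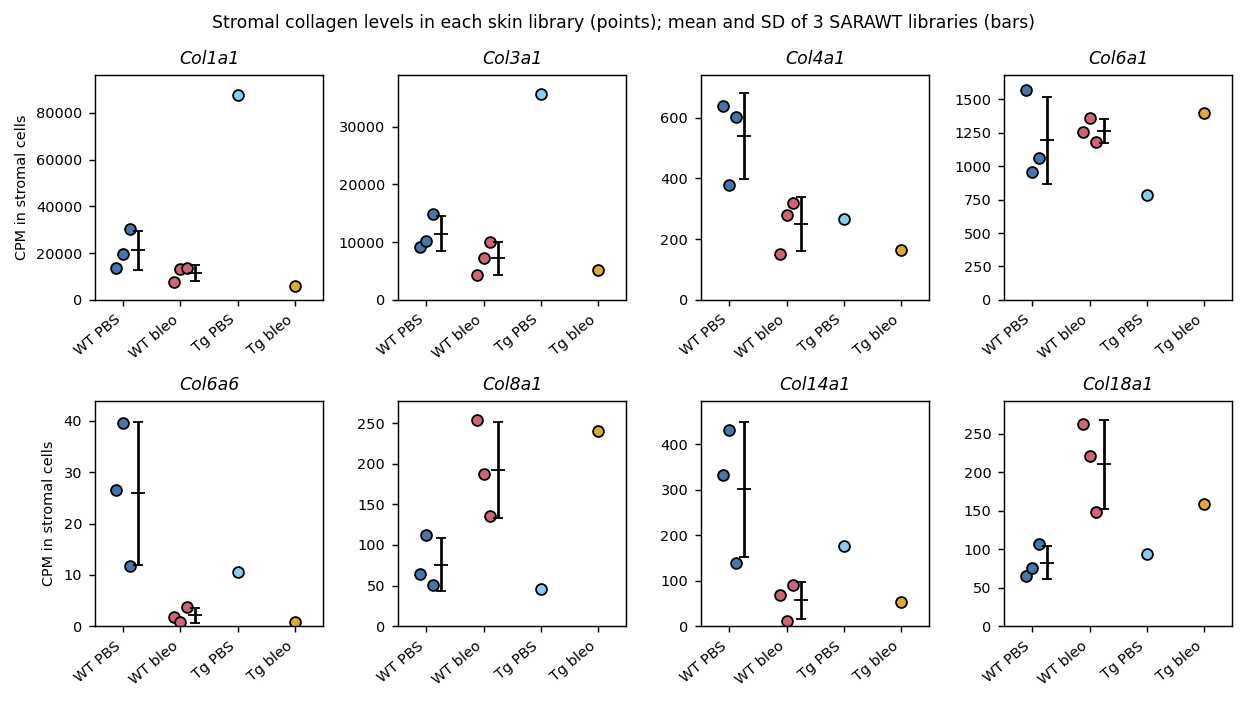
Level of 8 collagens in the stromal class of each skin library (points, CPM, linear axes from 0), by genotype and treatment, with the mean and SD of the 3 SARAWT libraries of a group as bars. Col6a6 and Col14a1 are lower and Col8a1 and Col18a1 higher in all 3 SARAWT bleomycin libraries than in the PBS libraries, Col6a1 overlaps, and the single SARATg PBS library has the highest Col1a1 and Col3a1 of all.

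The SARATg libraries have no replicates, so that their values are given with exact Poisson 95% intervals that cover counting error only. The SARATg PBS library stood apart in collagen content, with 21.1% of its stromal UMIs from collagens against 2.27% in the SARATg bleomycin library. Col1a1 was at 87698 CPM (interval 87559 to 87838) in its 915 stromal cells and at 5959 CPM (5911 to 6006) with bleomycin. Col3a1 was at 35579 CPM and 5191 CPM, the first above and the second within the range of the SARAWT libraries. Col6a1 in the same cells was at 788 CPM, the lowest of the 8 libraries. Of the collagens whose 2 SARAWT group means added up to 10 CPM or more, 3 were higher and 7 lower in every bleomycin library. Col1a1 and 4 others of these, picked here, had the same order in the SARATg libraries, and the rest are not described. The genes were chosen from these data and the share of all genes with this order is not given, so nothing is read from it. Col8a1 was at 45.3 CPM (42.2 to 48.6) with PBS and 240 CPM (231 to 250) with bleomycin. Col18a1 was at 93.3 CPM (88.8 to 98.0) and 159 CPM (152 to 167). Col6a6 was at 10.5 CPM (9.03 to 12.2) and 0.88 CPM (0.40 to 1.68), and Col14a1 at 176 CPM (169 to 182) and 53.2 CPM (48.8 to 57.8). Whether the effect of bleomycin differed between genotypes was not tested.

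Subsets of the stromal class, set by further marker genes, differed widely in collagens, and libraries drew on them unequally. In SARAWT PBS 1 the Crabp1 type made up 9.43% of stromal cells, the Pi16 type 5.66%, the Cthrc1 type 2.59% and the Cyp2f2 and Mmp3 type 1.89%, and the rest had no type. Cells of the Cyp2f2 and Mmp3 type held 54885 ± 33509 CPM of Col1a1 (SD, n = 3), those of the Cthrc1 type 14326 ± 7557 CPM (SD, n = 3) and those of the Pi16 type 9341 ± 4785 CPM (SD, n = 3), while the Crabp1 type held 173 and 294 CPM in its 2 libraries. These means come from partly different libraries, so that type is mixed with genotype and treatment. In SARAWT PBS 3, which had the first 3 types, they held 43899, 21836 and 4437 CPM. The last type also had 664 and 723 CPM of Col23a1, a transmembrane collagen, and 763 and 1019 CPM of Col15a1. Col14a1 was highest in the Pi16 type at 647 ± 34 CPM, and Col12a1 in the Cthrc1 type at 470 ± 115 CPM. Col1a2 exceeded Col1a1 in the Crabp1 type, at 942 and 1511 CPM. In the SARATg PBS library 123 of the 915 stromal cells (13.4%) were of the Cyp2f2 and Mmp3 type, with 92507 CPM of Col1a1, close to the level of the whole class there.

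In mural cells the comparison rests on few cells, and the bleomycin libraries differed among themselves. Bleomycin 3 was the only SARAWT bleomycin library with 10 mural cells or more (11 cells), so the fit sets 1 library against 3 PBS libraries and assumes that it would vary as they did. With an arm of 1 library a gene can pass the filter on low counts through that library alone, so that nothing is read from the signs of the 15 collagens tested, of which 3 passed the threshold (all genes called higher 0.357%). Col27a1 was not among the 15, at 88.5, 60.4 and 55.1 CPM with PBS and 0 with bleomycin. Col1a1 was at 140, 90.7 and 121 CPM with PBS and 578 CPM with bleomycin 3 (log2 change 2.27 ± 0.42, adjusted p = 0.0162, edgeR). For the other calls, Col5a2 and Col15a1, the fitted change is drawn in the figure but not read. Both were lower with PBS than Col27a1 and so passed the filter through the bleomycin library alone. Col5a2 was at 51.6, 45.3 and 44.6 CPM with PBS and 367 CPM with bleomycin 3. Col15a1 had 1, 0 and 6 UMIs with PBS and 29 UMIs with bleomycin 3 (7.38, 0 and 15.8 CPM against 409 CPM). Bleomycin 3 was above every PBS library for all 3 genes. The bleomycin libraries left out of the fit, with 2 and 5 mural cells, had 0 and 48.6 CPM of Col1a1 (0 and 2 UMIs), below the PBS range but near the count floor. They had 388.5 and 146 CPM of Col5a2 (4 and 6 UMIs), above its PBS range, and 97.1 and 0 CPM of Col15a1 (1 and 0 UMIs). Col4a1, not past the threshold, was at 789.5, 423 and 693 CPM and 1707 CPM. In SARATg mural cells Col5a2 was at 34.6 CPM (13.9 to 71.3) with PBS and 379 CPM (269 to 518) with bleomycin and Col1a1 at 237 CPM (175 to 315) and 418 CPM (302 to 563), whereas Col15a1 was at 44.5 CPM (20.4 to 84.5) and 48.6 CPM (15.8 to 113). Stromal markers in the mural class summed to 332 to 576 CPM with PBS and 973 CPM with bleomycin (4 to 6 of 14 detected), and leukocyte markers to 15.1 to 78.8 CPM with PBS (1 to 9 of 12 detected) and 310 CPM with bleomycin (9 of 12). Their part in the result was not tested. With shared barcodes kept in every library, 9 collagens were tested and none passed (edgeR adjusted p = 0.716 for Col1a1), and Col15a1 was not among the 9.

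Endothelial and Schwann cells were compared between the SARAWT groups after their values had been seen, and the adjusted p-values do not allow for that choice. In endothelial cells 4 collagens could be tested in 2 bleomycin against 3 PBS libraries. The bleomycin sums rest on 11 cells (bleomycin 1) and 36 cells (bleomycin 3). Col4a1 and Col4a2, the type IV chains among the 4, were called higher in these libraries (all genes called higher 0.369%). Col4a1 was at 648, 1112 and 756 CPM with PBS and 3917 and 3956 CPM with bleomycin (log2 change 2.22 ± 0.33, adjusted p = 0.0157, edgeR). Col4a2 was at 423, 762 and 463 CPM and 2049 and 2098 CPM (1.92 ± 0.35, adjusted p = 0.0305, edgeR). Both genes lay well apart between groups, but bleomycin 2, left out of the fit with 7 endothelial cells, had 703 CPM of Col4a1 and 389 CPM of Col4a2, within or below the PBS range. Col15a1 was at 278, 74.9 and 188 CPM and 1130 and 659 CPM (2.15 ± 0.45, adjusted p = 0.0557, edgeR) and Col18a1 at 187, 37.5 and 257 CPM and 467 and 777 CPM (1.83 ± 0.55, adjusted p = 0.152, edgeR). The SARATg libraries had 773 CPM of Col4a1 (647 to 916) with PBS and 2991 CPM (2712 to 3291) with bleomycin. Mural markers in the endothelial class moved with the groups, from a sum of 125 to 220 CPM with PBS to 468 to 512 CPM with bleomycin (3 to 7 of 12 detected), and their part was not tested. No collagen passed without PBS 1, PBS 3 or bleomycin 3, or with shared barcodes kept, and 1 passed without PBS 2 or bleomycin 1.

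In Schwann cells 21 collagens were tested in 3 bleomycin against 2 PBS libraries, and 5 were higher (all genes 3.32%) and 2 lower (all genes 3.51%). Both PBS libraries of the fit, labelled SARAWT PBS 1 and PBS 3, have ZFYVE9 or Zfyve9 levels that go against the label, so that no fit without them could be made. Human ZFYVE9 was also counted in bleomycin 1 and 2, at 89.3 and 115 CPM. The median log2 change of the 21 collagens was 0.55, against -0.01 over 5580 genes. Col1a1 was at 3039 and 2840 CPM with PBS and 5731, 8447 and 7393 CPM with bleomycin (log2 change 1.40 ± 0.25, adjusted p = 0.0178, edgeR). Col8a1 was at 253 and 295 CPM and 687, 1031 and 639 CPM (1.60 ± 0.28, adjusted p = 0.0165, edgeR). Col18a1 was at 643 and 727 CPM and 1409, 1753 and 1853 CPM (1.39 ± 0.23, adjusted p = 0.0161, edgeR). All bleomycin libraries were above both PBS libraries for these genes, as they were for the type V chains Col5a1 (log2 change 1.04 ± 0.26) and Col5a2 (0.99 ± 0.25). Col14a1 was at 130 and 66.7 CPM and 34.9, 29.4 and 32.8 CPM (-1.39 ± 0.34, adjusted p = 0.0472, edgeR), and Col20a1 at 331 and 60.4 CPM and 19.3, 0 and 30.1 CPM (-2.94 ± 0.74, adjusted p = 0.0484, edgeR). Col20a1 passed the filter on low counts through the PBS libraries, where it was high, so its call carries that limit. PBS 2, left out with 6 Schwann cells, had 3639 CPM of Col1a1, 87.9 CPM of Col8a1 and 1125 CPM of Col18a1, all below the bleomycin range. SARATg Schwann cells had 1060 CPM of Col1a1 (933 to 1200) with PBS and 6444 CPM (6298 to 6593) with bleomycin, and 17.0 CPM of Col8a1 (4.62 to 43.4) and 1011 CPM (954 to 1071). The class's own Schwann cell markers moved with the groups, from sums of 19322 and 11189 CPM with PBS to 3112, 5320 and 3094 CPM with bleomycin, with all 10 detected in each library. They were at 19502 CPM in SARATg PBS and 3332 CPM in SARATg bleomycin. Stromal markers in the class also moved, from a sum of 203 to 325 CPM with PBS to 846 to 1148 CPM with bleomycin (7 to 9 of 14 detected), and mural markers from 540 to 669 CPM to 855 to 1184 CPM. Their part was not tested. No collagen passed without PBS 1, 2 without bleomycin 2, 3 without PBS 3 or bleomycin 1 and 4 without bleomycin 3.

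**Figure D4:**
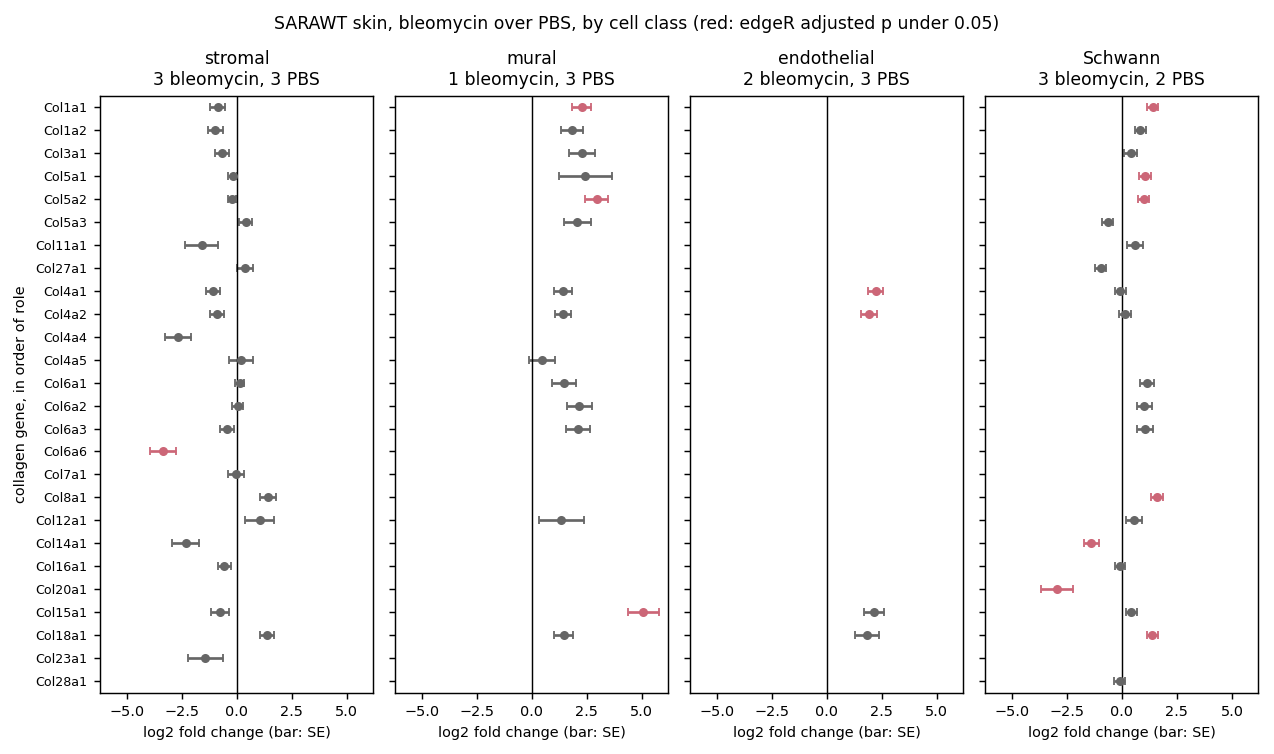
Log2 fold change of each tested collagen, bleomycin over PBS in SARAWT skin (horizontal axis, with the SE as bars), in 4 cell classes, with red for an edgeR adjusted p under 0.05. Stromal changes lie on both sides of 0 with Col6a6 alone in red, 2 endothelial points are red and above 0, and Schwann cells have 5 red points above 0 and 2 below. The mural panel rests on 1 bleomycin library of 11 cells, so that nothing is read from its points. Among them, Col5a2 and Col15a1 passed the filter on low counts through that library alone.

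Over all skin cells of a library, fewer cells of a type and less RNA per cell cannot be told apart. Type I and III mRNAs were lower with bleomycin in these sums, with 3 of 35 collagens past the threshold (all genes called lower 0.353%). Col1a1 was at 4083, 4660 and 3144 CPM with PBS and 1338, 1062 and 937 CPM with bleomycin (log2 change -1.68 ± 0.21, adjusted p = 0.0486, edgeR). Col1a2 was at 3785, 4344 and 2823 CPM and 1159, 851 and 845 CPM (-1.79 ± 0.22), and Col3a1 at 2177, 2415 and 1579 CPM and 686, 578 and 732 CPM (-1.47 ± 0.19), both with the same adjusted p. The groups did not overlap for any of the 3. The stromal share of a library's UMIs was lower alongside, at 17.2%, 22.3% and 9.58% with PBS and 7.01%, 5.34% and 2.75% with bleomycin, and its part in the result was not tested. With the replicate block 6 collagens were lower, without PBS 3 11 passed, and none passed with any other SARAWT library left out, with PBS 1 and PBS 3 both left out or with shared barcodes kept. The shares of all genes called in these alternatives are not given, so the counts say nothing about collagens in particular. The SARATg PBS library had 28501 CPM of Col1a1 and the SARATg bleomycin library 1632 CPM.

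In the sorted kidney cells, type IV was the main collagen. These held 40 stromal and 51 mural cells over the 9 libraries, against 21281 of the proximal tubule, so the shares describe the sorted cells and not the tissue. All cells together gave 0.0172% to 0.0648% of UMIs to collagens, and type IV chains were 58.1% to 85.9% of these. The proximal tubule held 37.7% to 92.7% (median 51.6%) of a library's collagen UMIs. Its highest means were those of Col4a4 and Col4a3 (Col4a1 exceeded Col4a3 in SARAWT aristolochic acid 3 and in the library labelled SARATg aristolochic acid), which with Col4a5 form the network of the mature glomerular and some tubular basement membranes. Col4a4 was at 211, 264 and 199.98 CPM in SARAWT vehicle libraries, 271, 209 and 207 CPM with aristolochic acid, 167 and 191 CPM in SARATg vehicle libraries and 112 CPM (106 to 119) with aristolochic acid in the library labelled SARATg. Col4a3 was at 166, 186 and 140.5 CPM, 180, 155 and 148 CPM, 127 and 151 CPM, and 79.0 CPM. The SARAWT groups overlapped for both. Further along the nephron, Col4a4 averaged 227 CPM in the thick ascending limb, 233 ± 101 CPM in the distal convoluted tubule (SD, n = 8) and 220 CPM in principal cells, and Col18a1 was highest in intercalated cells at 222 ± 90 CPM (range 118 to 400, n = 8). Col26a1, at most 11.6 CPM on average in any skin class, was at 87.1 ± 76.2 CPM in principal cells (SD, n = 6).

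Kidney endothelial cells, like those of skin, were highest in Col4a1 among the classes with 6 libraries or more, at 675, 707 and 1056 CPM in SARAWT vehicle libraries, 1208 and 1356 CPM with aristolochic acid, 937 and 784 CPM in SARATg vehicle libraries and 859 CPM (794 to 928) in the library labelled SARATg aristolochic acid. Col4a2 averaged 613 ± 296 CPM (SD, n = 8) and Col15a1 51.5 ± 51.3 CPM. Fibrillar collagen was scarce in these sorted cells. Only SARATg vehicle 2 had 10 stromal cells or more (32 cells), with 1006 CPM of Col1a2, 817 CPM of Col3a1, 508 CPM of Col1a1, 257 CPM of Col14a1, 225 CPM of Col6a1, 204 CPM of Col5a2 and 115 CPM of Col5a1. Against leukocytes, 7 of the 9 collagens that passed the filter were higher in the proximal tubule (all genes 35.0%), Col4a4 by 5.58 ± 0.26 and Col4a3 by 5.51 ± 0.25 on the log2 scale (SE), and Col5a2 was lower (all genes 43.1%). In endothelial cells 7 were higher (all genes 23.7%), Col4a1 by 6.99 ± 0.32, and Col27a1 was lower (all genes 33.0%).

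**Figure D5:**
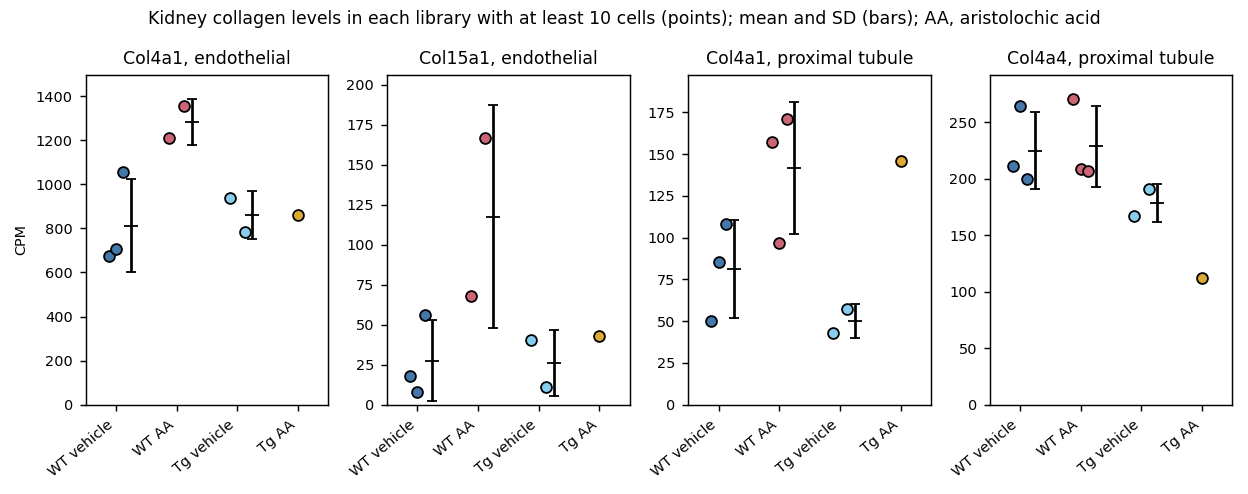
Level of Col4a1 and Col15a1 in kidney endothelial cells and of Col4a1 and Col4a4 in proximal tubule cells of each library with at least 10 cells of the class (points, CPM, linear axes from 0), by genotype and treatment, with the mean and SD of groups of 2 or 3 libraries as bars. Proximal tubule Col4a4 lies between 112 and 271 CPM, and the SARAWT vehicle and aristolochic acid libraries overlap.

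No collagen passed the threshold in a kidney comparison of conditions. After aristolochic acid, 0 of 11 collagens tested in the proximal tubule were called (all genes 0%), 0 at an unadjusted p under 0.05 (889 of all 11823 genes) and 0 by DESeq2. Col18a1 was at 11.4, 25.6 and 77.2 CPM with vehicle and 88.8, 75.6 and 118 CPM with aristolochic acid there (log2 change 1.12 ± 0.63, adjusted p = 0.548, edgeR), and Col4a1 at 49.9, 85.5 and 108 CPM and 157.5, 96.7 and 171 CPM (0.60 ± 0.31, adjusted p = 0.548, edgeR). Both overlapped between the groups by 1 library. In endothelial cells 0 of 8 were called (all genes 0%), 1 at an unadjusted p under 0.05 (Col15a1, and 204 of all 6632 genes) and 0 by DESeq2. Over all kidney cells 0 of 30 were called (all genes 0%), 5 at an unadjusted p under 0.05 (1553 of all 15966 genes) and 0 by DESeq2. Without SARAWT vehicle 3, 1 collagen passed in the proximal tubule and 6 over all cells, with the shares of all genes not given. Leukocytes made up 11.6%, 14.0% and 79.4% of kept cells in SARAWT vehicle 1, 2 and 3. They made up 87.4%, 65.8% and 84.6% with aristolochic acid, so that vehicle 3 lay within the range of the treated libraries. The part of this cell mixture was not tested, and the lack of calls does not show that collagens were unchanged. Between SARATg and SARAWT vehicle libraries 0 of 32 were called over all cells (all genes 0%) by edgeR. There 1 was at an unadjusted p under 0.05 (467 of all 16289 genes) and 1 was called by DESeq2. Of 8 tested in endothelial cells 0 were called (all genes 0.0481%) by edgeR, with 3 at an unadjusted p under 0.05 (380 of all 8317 genes) and 0 by DESeq2. The transmembrane collagen Col13a1 was at 2.50 and 3.59 CPM in the SARATg libraries over all cells and at 0.275, 0.0823 and 0.252 CPM in the SARAWT libraries (log2 change 3.79 ± 0.76, adjusted p = 0.9997, edgeR). Endothelial cells held 5.66% and 2.76% of the UMIs in those SARATg libraries and 0.407%, 0.380% and 1.35% in the SARAWT libraries, and within endothelial cells the log2 change of Col13a1 was 1.29 ± 0.62 (adjusted p = 0.9993, edgeR). The part of this cell share was not tested.

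Genes that process collagen were counted from lists of 21 genes for folding, modification and secretion, 13 for trimming and cross-linking and 10 receptors. The shares over all genes are given in parentheses. In stromal cells against leukocytes, 18 of 20 folding genes tested were higher (32.2%), Serpinh1 (the collagen chaperone) among them, and the prolyl hydroxylase P3h2 was lower (34.3%). All 11 trimming and cross-linking genes tested were higher, of which Loxl1 is also a stromal marker, and of 10 receptors 5 were higher, including Ddr2, and 3 lower, including Lair1. After bleomycin, 0 of 19 folding genes and 0 of 6 receptors were called in stromal cells, while of 10 trimming genes the cross-linking enzyme Loxl3 was higher (1.30%) and the procollagen C-proteinase Bmp1 lower (1.13%). In Schwann cells Fkbp10 and P4ha2 of 18 folding genes, Loxl2 of 5 trimming genes and the integrin subunit Itgb1 of 5 receptors were higher (3.32%) and 0 were lower (3.51%). In mural cells 0 of 4 folding genes, 1 of 4 trimming genes and 0 of 3 receptors were called (0.357%), from the fit with 1 bleomycin library of 11 cells, so that nothing is read from them. In endothelial cells 0 of 10 folding genes, 0 of 1 trimming gene and 0 of 3 receptors were called (0.369% of all genes higher). With so low a share, nothing is read from these counts.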

How the data were processed

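Per the labels, cells were digested with Liberase, sorted for GFP and run on a 10x Chromium 3′ platform. The deposited values are UMI counts per gene and cell in 17 matrices, which the authors made with Cell Ranger. The submitters' processing notes name Cell Ranger 3.0.2, Seurat 2.3.4 and mm10, and the file headers name Cell Ranger 4.0.0 (SARAWT skin PBS 1 and 2, bleomycin 1 and 2), 3.1.0 (other skin) and 3.0.2 (kidney). The gene lists differ, and the 30406 shared IDs, all 44 collagens among them, were used. Cell Ranger counts UMIs at transcript 3′ ends, so that isoforms are not told apart.

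A cell was kept from 200 detected genes on, unless over 20% of its UMIs were mitochondrial. Each was given the class with the largest share of its marker list detected, if at least 3 markers were and the share was at least 2 times that of the next class. Cells whose largest share was under 2 times that of the next class, which can include doublets, were left out. So were those of few markers, and 82.5% to 96.1% of kept cells had a class. No cell annotation of the authors was used. Counts were summed per library and class of at least 10 cells and tested with edgeR 4.0.16 (quasi-likelihood F test, filterByExpr, TMM, Benjamini-Hochberg over all genes, threshold 0.05) in R 4.3.3. DESeq2 1.42.0 was an alternative. Descriptions used Python 3.11.15, numpy 2.4.6, pandas 2.3.3 and scipy 1.17.1, and the models were tested on simulated data. Intervals of single libraries are exact Poisson 95% intervals of counts. Groups and replicate numbers came from sample titles. Fits with the library number as a block were alternatives. They are given beside a result with 3 libraries in each group where every same-numbered pair's deviations from the group means correlated by over 0.1. These were skin stromal cells (0.204, 0.275 and 0.402) and all skin cells (0.414, 0.234 and 0.631). That is a hint from the data, and libraries of 1 number also share a gene list. The named collagens were those with a mean of at least 100 CPM in a class, those called between conditions, and Col1a1, Col1a2, Col3a1, Col4a1 to Col4a4, Col6a1, Col6a2, Col7a1, Col15a1, Col17a1 and Col18a1. Members, gene lists and markers were chosen with earlier results of these data known. Removal of shared barcodes and the endothelial and Schwann comparisons in skin were added after the values were seen.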

Additional observations from a re-analysis of the deposited data

Results flagged for a closer look

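For 4 collagens, picked because their values differed, the ratio after bleomycin lay on opposite sides of 1 in skin stromal cells and in the 1 mural sum available (SARAWT libraries). The ratio of the bleomycin mean to the PBS mean was 0.547 for Col1a1, 0.511 for Col1a2, 0.464 for Col4a1 and 0.532 for Col4a2 in stromal cells, where all 3 bleomycin libraries were below all 3 PBS libraries. In mural cells the ratio was 4.93 for Col1a1, 3.61 for Col1a2, 2.69 for Col4a1 and 2.67 for Col4a2, with 1 bleomycin library of 11 mural cells above all 3 PBS libraries. The rise in that mural library was not particular to these genes. Of the collagens whose 2 group means added up to 10 CPM or more, 18 lay above every PBS library and 1 below. The share of all genes is not given. The difference between the classes was not tested, and nothing is read from the mural ratios. Mural cells of bleomycin 1 (2 cells) and bleomycin 2 (5 cells), left out of these ratios, had 0 and 48.6 CPM of Col1a1. Both values lie below the PBS range, but they are 0 and 2 UMIs and so near the count floor. For the other genes bleomycin 1 lay above every PBS library, at 680 CPM of Col1a2, 2525 CPM of Col4a1 and 1068 CPM of Col4a2. Bleomycin 2 lay within the PBS range of each, at 97.2, 778 and 365 CPM.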

How the results depend on the processing

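Counts here are collagens called. The shares of all genes called under these settings are not given, here or beside the results above, so nothing about collagens in particular is read from the counts. In stromal cells after bleomycin (1 called), DESeq2 called 5, no filter 13, no deep cells 0, the replicate block 4, shared barcodes kept 2, a term for the gene list 3 and omission of PBS 1 and PBS 3 0, and leaving out 1 library gave 0 to 3, with Col6a6 called only without PBS 3. In all skin cells (3 called) the same settings gave 15, 9, 5, 6, 0, 6 and 0, a stricter cell filter 0, and leaving out 1 library 0 to 11. In mural cells (3 called) DESeq2 gave 1, no filter 5, shared barcodes kept 0 and leaving out 1 PBS library 7 to 10. In skin endothelial cells (2 called) no filter gave 4, stricter cells 1, shared barcodes kept 0 and leaving out 1 library 0 to 1. In Schwann cells (7 called) no filter gave 12, stricter cells 4, no deep cells 12, at least 20 cells 2 and leaving out 1 library 0 to 4. There the uncalled log2 change of Col4a1 (-0.07) was 0.021 with no filter and -0.24 to 0.11 with 1 library left out (0.11 without bleomycin 1, 0.09 without PBS 3), and that of Col4a2 (0.14) was -0.080 with the replicate block, -0.076 with at least 20 cells and -0.086 to 0.45 with 1 library left out (-0.086 without PBS 1, -0.08 without bleomycin 2). Kidney tests with 0 called gave, with 1 library left out, 0 to 1 (proximal tubule) and 0 to 6 (all cells) after aristolochic acid, and for SARATg 1 over all cells by DESeq2 and with the block, and 3 in endothelial cells with no filter and with the block. Against leukocytes, skin endothelial cells gave 16 by DESeq2 (9 called), the kidney proximal tubule 30 with no filter and 13 with at least 20 cells (8 called), and kidney endothelial cells 20, 13 with stricter cells and 14 with at least 20 cells (8 called). The causes were not tested. Of the values for named collagens under the alternatives, 422 kept direction and call, 82 lost the call, 37 gained it and 7 reversed. Among comparisons with 3 libraries in each group, the numbers paired the samples by the measure used in skin stromal and all skin cells alone. Where a group had 2 libraries, same-numbered pairs also correlated by over 0.1 in skin endothelial (0.117 and 0.139) and Schwann cells (0.139 and 0.316). So they did in all kidney cells of SARATg against SARAWT (0.215 and 0.165). The deviations of 2 libraries mirror each other, so these pairs are not separate measures. Mural cells could not be refitted with stricter cells, the block, at least 20 cells, or without bleomycin 3 or PBS 1 and PBS 3, nor Schwann cells without PBS 1 and PBS 3, satellite cells with at least 20 cells, or kidney mural cells and podocytes against leukocytes. Small classes (2 to 52 mural and 7 to 65 skin endothelial cells a library) and lone SARATg libraries limit what could be detected.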

Other observations

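Of 4 other collagen pairs, 3 were in different ratios in stromal and Schwann cells of skin. Col5a1 stood at 0.75 ± 0.09 times Col5a2 in stromal cells (SD, n = 8) and at 0.32 ± 0.05 in Schwann cells (SD, n = 7). Col6a1 stood at 1.35 ± 0.10 times Col6a2 in stromal cells (SD, n = 8) and 2.26 ± 0.45 in Schwann cells (SD, n = 7). Col3a1 was at 12.0 ± 5.2 times its neighbour Col5a2 in stromal cells (SD, n = 8) and 1.58 ± 0.38 times in Schwann cells (SD, n = 7), with no overlap between the classes for any of the 3 ratios. Col6a1 over Col6a3 overlapped, at 0.880 to 2.02 in stromal cells (n = 8) and 1.02 to 1.79 in Schwann cells (n = 6). The single muscle satellite sum with enough UMIs had 0.290 Col1a1 UMIs for each Col1a2 UMI, and the kidney stromal sum 0.505. Differences between these ratios were not tested.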
